A study of Mus musculus with 6 samples.

Results

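The E2F transcription factors E2f1 to E2f8, together with Mybl2 and Foxm1, were examined in mouse small intestinal organoids treated with MMK-1. They were chosen by name as the rows of these genes in the deposited expression table, and all 10 were found among the 21397 genes listed. Crypts of the ileum were taken from Fpr2f/f mice, in which the Fpr2 gene is flanked by loxP sites and no Cre recombinase is named for these samples, so that control and treated organoids carried the same floxed allele. The mice of the study were matched for sex and age at 8 to 12 weeks. Organoids of the treated group received 1 μmol/L MMK-1 over 5 days of culture and those of the control group received the vehicle, 0.1% DMSO. MMK-1 is a synthetic peptide that activates the G protein-coupled receptor FPR2. For the MMK-1 dose, the label for treatment reads 1 mmol/L, whereas the protocol text and the methods of the study give 1 μmol/L, which was taken here. There were 3 libraries per group, and each sample is stated to hold organoids of 3 mice. The comparison asks how the transcription factors of the cell cycle differed between stimulated and unstimulated organoids.

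E2F proteins bind promoters of genes needed for DNA replication, mostly as a dimer with a DP protein. In resting cells the pocket proteins RB1, RBL1 and RBL2 hold them in check, and phosphorylation of the pocket proteins by cyclin-dependent kinases in G1 releases the activators. E2F1, E2F2 and E2F3 are known as activators, E2F4 and E2F5 as repressors that work with the pocket proteins, E2F6 as a repressor that does not need them, and E2F7 and E2F8 as atypical repressors that bind DNA without a DP partner. MYBL2, also called B-MYB, joins the MuvB complex in S phase, and FOXM1 joins it in G2, and the genes of mitosis are switched on in this way. In the intestinal epithelium these factors act in the cycling stem and transit-amplifying cells of the crypt, while the enterocytes of the villus have left the cycle.

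Because genes of this group are known to be regulated by E2F factors themselves, the promoter sequences of the members were searched for the letters that these factors recognise. RefSeq windows on GRCm38.p6, from 250 bases before to 50 bases after the transcription start, were at hand for 7 of the 10 members, with 9 windows in all and 300 bases in each. E2f4, E2f5 and Foxm1 had no window. The words searched on both strands were TTTCCCGC, TTTCGCGC, TTTGCCGC and TTTGGCGC for an E2F site, GGCGGGA for a shorter E2F core that can overlap it, and TTTGAA for the CHR, the element through which the MuvB complex binds. Windows of 5 members are shown 5′ to 3′, on the strand of the gene, since they hold such a word close to a member that differed between the groups. Capitals mark E2F and CHR words on either strand. The word CCAAT was also searched and is not marked. It was present in windows of E2f2, E2f3, E2f7 and E2f8, and in 38.3% of the windows of genes tested below.
E2f2: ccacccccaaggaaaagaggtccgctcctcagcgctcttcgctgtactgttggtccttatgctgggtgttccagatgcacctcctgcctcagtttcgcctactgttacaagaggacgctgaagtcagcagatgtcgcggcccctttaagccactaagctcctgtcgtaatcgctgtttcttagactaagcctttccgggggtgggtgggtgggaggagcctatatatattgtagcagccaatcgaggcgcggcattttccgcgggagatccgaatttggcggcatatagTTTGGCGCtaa
E2f3: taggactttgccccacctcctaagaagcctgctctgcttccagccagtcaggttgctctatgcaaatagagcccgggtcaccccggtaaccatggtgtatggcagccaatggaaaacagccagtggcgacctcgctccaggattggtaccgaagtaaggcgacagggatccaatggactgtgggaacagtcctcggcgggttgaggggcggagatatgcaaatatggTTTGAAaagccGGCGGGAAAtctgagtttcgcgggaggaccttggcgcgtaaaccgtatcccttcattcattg
E2f7: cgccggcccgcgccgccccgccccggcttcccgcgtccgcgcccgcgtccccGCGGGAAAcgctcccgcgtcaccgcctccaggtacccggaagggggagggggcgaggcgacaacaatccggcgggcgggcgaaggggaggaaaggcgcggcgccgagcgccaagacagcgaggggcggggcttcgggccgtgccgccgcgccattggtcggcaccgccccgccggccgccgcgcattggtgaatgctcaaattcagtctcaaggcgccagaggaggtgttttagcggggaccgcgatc
E2f8: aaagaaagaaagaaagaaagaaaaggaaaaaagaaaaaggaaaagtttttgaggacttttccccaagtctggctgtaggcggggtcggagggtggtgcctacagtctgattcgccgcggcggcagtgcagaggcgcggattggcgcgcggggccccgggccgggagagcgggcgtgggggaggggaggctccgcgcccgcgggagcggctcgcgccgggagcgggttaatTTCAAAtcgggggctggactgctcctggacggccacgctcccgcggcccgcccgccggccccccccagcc
Mybl2: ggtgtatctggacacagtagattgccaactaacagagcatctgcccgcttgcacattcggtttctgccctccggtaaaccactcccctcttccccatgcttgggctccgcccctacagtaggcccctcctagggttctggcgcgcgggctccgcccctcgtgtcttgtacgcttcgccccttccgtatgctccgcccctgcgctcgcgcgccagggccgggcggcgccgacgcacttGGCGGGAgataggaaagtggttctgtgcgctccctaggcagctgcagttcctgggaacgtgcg

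The E2f2 window at chr4:136172024-136172323 held TTTGGCGC at position 39, counted from 0 at the start base. In the E2f3 window at chr13:29986014-29986313, a CHR word began at position -23 and an E2F core at position -12, and the core overlapped TTTCCCGC on the opposite strand. TTTCCCGC also lay on the opposite strand of the E2f7 window, at chr10:110745189-110745488, where it began at position -198. The E2f8 window at chr7:48881547-48881846 held a CHR word on the opposite strand at position -20 and no E2F word. The Mybl2 window at chr2:163054385-163054684 held GGCGGGA at position -13. A second E2f3 window, at chr13:29984342-29984641, held 2 core words, and a second E2f2 window held a CHR word. Both of these second windows lay inside the gene as GENCODE draws it. The windows of E2f1 and E2f6 held none of these words, and the E2f1 window also lay inside its gene. An E2F word or core was thus present in windows of 4 of the 7 members, and in 5 of the 9 windows. The shares over all windows that follow are given for each kind of word, and windows with either kind were not counted. Of all 32851 promoter windows, 2.26% held an 8-letter E2F word, 11.3% the E2F core and 17.9% the CHR word, and among the 10891 windows of genes tested below the shares were 4.16%, 21.1% and 12.3%. A match of letters is a description of the window, and no binding was measured.

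The deposited values were FPKM, which are fragments scaled to the length of the gene and to the sequencing depth. The totals recovered from the values were 37381850 to 37537463 fragments in controls and 35512739 to 37143595 with MMK-1. Every library held at least 212 fragments of each member, a number with a 95% Poisson interval of 184 to 243 that covers counting error only. The limma-trend test ran on log2(FPKM + 1) and covered 10551 genes, those whose FPKM averaged 1 or more, with all 10 members among them, and fold changes on this scale understate those of genes with low values. The p-values measure the spread between these libraries. In several genes named below, such as Rb1, MMK-1 replicate 3 stood apart from the other MMK-1 libraries, and the factors are therefore also given without it.

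In the MMK-1 organoids, 9 of the 10 factors were higher at a threshold of 0.05 on the p adjusted by Benjamini-Hochberg in the limma test, none was lower, and E2f5 did not pass. Of all genes tested, 48.5% were higher and 24.7% lower by the same rule. When the libraries were scaled by their upper quartile, 9 factors were higher and E2f5 was lower, beside 38.9% and 33.1% of genes tested. After median-of-ratios scaling 8 factors were higher, E2f5 was lower and E2f2 did not pass, beside 34.9% and 37.1%. The median log2 fold change was 0.39 for the factors and 0.13 for all genes tested, 0.31 and 0.037 after upper-quartile scaling, and 0.28 and -0.0034 after median-of-ratios scaling. For 9 factors all 3 MMK-1 libraries lay above all 3 controls, as they did for 50.5% of genes tested, while 26.3% lay below without overlap. No factor reached a fold change of at least 2 on the log2(FPKM + 1) scale, which 3.39% of all genes tested did upward and 3.65% downward at an unadjusted p of at most 0.05. With a pseudocount of 0.1, E2f1, E2f8 and Foxm1 reached it, beside 6.41% of genes tested. They also did so in limma-voom on the fragments, beside 6.89%. Ranked by log2 fold change, E2f8, Foxm1, E2f1 and Mybl2 formed the upper part of the family, with 3.60%, 3.72%, 5.67% and 7.53% of genes tested above them, and the other factors lay between 23.4% for E2f7 and 75.1% for E2f5.

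**Figure D1:**
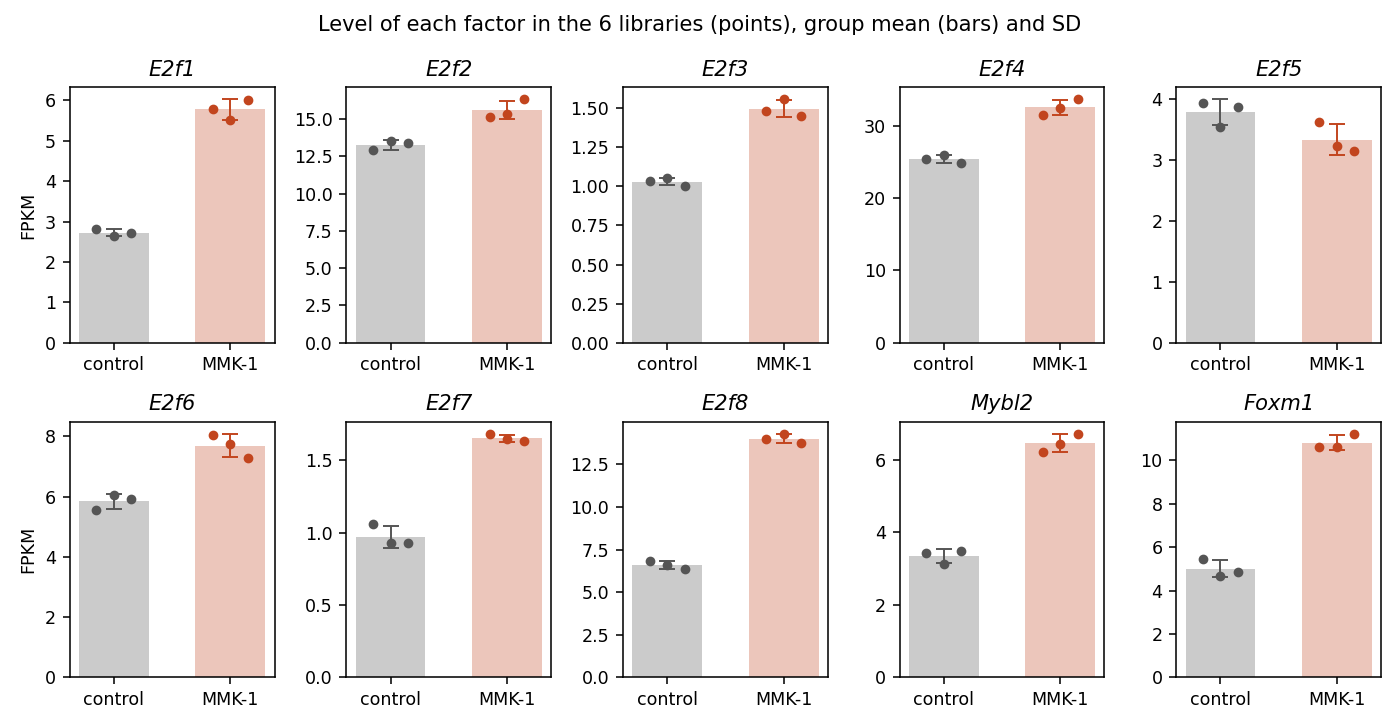
FPKM (vertical axes, from 0 and scaled separately) of the 10 factors in the 3 control and 3 MMK-1 libraries (points), with group means (bars) and SD (whiskers). The groups are apart in every panel except that of E2f5, where the lowest control, 3.54, lies below the highest MMK-1 library, 3.63.

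The activators rose to different extents. E2f1 (NCBI gene 13555), which drives entry into S phase, lies on chr2:154559407-154569892 of GRCm38. Its FPKM was 2.82, 2.65 and 2.71 in the control libraries and 5.79, 5.52 and 6.02 with MMK-1. The lowest MMK-1 library was far above the highest control. Group means were 2.73 ± 0.0857 (SD, n = 3) and 5.78 ± 0.249 (SD, n = 3), a ratio of 2.12, and the log2 fold change was 0.86 (SE 0.052, adjusted p = 1.22e-06).

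E2f2 (NCBI gene 242705), at chr4:136172394-136196057, was the most abundant activator by FPKM. It had values of 12.9, 13.5 and 13.4 in controls and 15.1, 15.3 and 16.3 with MMK-1. The groups did not overlap, but the step between them was small beside that of E2f1. The ratio of means was 1.18 and the log2 fold change 0.22 (SE 0.046, adjusted p = 0.00236), with 41.6% of genes tested above it. After median-of-ratios scaling, which moved the median of all genes tested by -0.14, the log2 fold change of E2f2 was 0.070 (adjusted p = 0.133) and no longer passed. E2f3 (NCBI gene 13557), another activator of S phase genes, lies on chr13:29906575-29986063, and its FPKM was 1.03, 1.05 and 1.01 in controls and 1.48, 1.56 and 1.45 with MMK-1. All MMK-1 libraries were above the controls, with a ratio of means of 1.45 and a log2 fold change of 0.30 (adjusted p = 0.00132). On the fragments, where the pseudocount weighs less, the log2 fold change of E2f3 in limma-voom was 0.54.

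The difference between activators was examined with ratios of FPKM within each library. Scaling of the library does not change such a ratio, and gene length does not change its difference between the groups on the log2 scale. These pairs were picked after the values had been seen. The log2 ratio of E2f1 over E2f2 was higher by 0.85 with MMK-1, and that of E2f1 over E2f3 by 0.54. In both cases the 3 MMK-1 libraries were above the 3 controls (exact two-sided permutation p = 0.1, the smallest that 3 against 3 libraries can give).

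Of the repressors that work with pocket proteins or beside them, E2f4 and E2f6 rose and E2f5 did not. E2f4 (NCBI gene 104394), on chr8:105297663-105305370, had the highest FPKM of the 10 factors, with 25.5, 26.0 and 24.9 in controls and 31.5, 32.4 and 33.6 with MMK-1. The groups were apart, with a log2 fold change of 0.34 (SE 0.042, adjusted p = 9.94e-05). E2f6 (NCBI gene 50496), which acts with Polycomb proteins, lies on chr12:16810963-16839742 and had an FPKM of 5.55, 6.04 and 5.93 in controls and 8.06, 7.73 and 7.30 with MMK-1. These groups were also apart, with a log2 fold change of 0.35 (SE 0.054, adjusted p = 0.000404).

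E2f5 (NCBI gene 13559), a partner of RBL2 in resting cells, lies on chr3:14578641-14606309. Its FPKM was 3.93, 3.54 and 3.88 in controls and 3.63, 3.23 and 3.15 with MMK-1. Replicate 1 of the MMK-1 group lay above replicate 2 of the controls, so the groups overlapped. The log2 fold change was -0.14 (SE 0.063, adjusted p = 0.0692). It was -0.23 (adjusted p = 0.0109) after upper-quartile scaling, -0.27 (adjusted p = 0.00682) after median-of-ratios scaling, -0.18 (adjusted p = 0.0439) in limma-voom, which called 24.5% of genes tested lower, and -0.19 (adjusted p = 0.0288) without MMK-1 replicate 1, so that its call as lower depended on the processing. The log2 ratio of E2f4 over E2f5 was higher by 0.54 with MMK-1, without overlap of the groups (exact permutation p = 0.1).

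The atypical repressors both rose, and E2f8 had the highest log2 fold change of the 10 factors in the limma-trend fit. E2f8 (NCBI gene 108961), at chr7:48866429-48881596, had an FPKM of 6.82, 6.60 and 6.36 in controls and 14.0, 14.3 and 13.8 with MMK-1. The replicates lay close together in both groups and the groups were far apart. Its ratio of means was 2.12 and its log2 fold change 0.98 (SE 0.045, adjusted p = 2.41e-07). E2f8 shares 610 exon bases with Gm2788 on the opposite strand, whose FPKM was between 0.24 and 0.49. Whether counting used the strand is not given in the sources used here, and reads of the shared bases could then belong to either gene.

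E2f7 (NCBI gene 52679), at chr10:110745439-110787384, had an FPKM of 1.06, 0.931 and 0.926 in controls and 1.68, 1.64 and 1.63 with MMK-1. All MMK-1 libraries were above the controls, and the log2 fold change was 0.43 (SE 0.059, adjusted p = 0.000193), or 0.77 in limma-voom. E2f8 exceeded E2f7 in its change, since the log2 ratio of E2f8 over E2f7 was higher by 0.32 with MMK-1 (exact permutation p = 0.1, no overlap). The log2 ratio of the activator E2f1 over the repressor E2f8 differed by -0.0041 between the groups (exact permutation p = 1.0), with libraries of the groups intermingled. The log2 ratio of E2f8 over E2f2 was higher by 0.85 with MMK-1 (exact permutation p = 0.1).

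The factors of the MuvB complex rose together. Mybl2 (NCBI gene 17865), the factor of S phase, lies on chr2:163054687-163084688, and its FPKM was 3.43, 3.13 and 3.49 in controls and 6.23, 6.43 and 6.72 with MMK-1. Every MMK-1 library was above every control. Group means were 3.35 ± 0.195 (SD, n = 3) and 6.46 ± 0.246 (SD, n = 3), a ratio of 1.93, with a log2 fold change of 0.78 (SE 0.055, adjusted p = 3.18e-06).

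Foxm1 (NCBI gene 14235), which takes over in G2, lies on chr6:128362967-128376146. It had an FPKM of 5.46, 4.69 and 4.88 in controls and 10.6, 10.6 and 11.2 with MMK-1. The control libraries spread more than those of Mybl2, and the groups were far apart. Means were 5.01 ± 0.404 (SD, n = 3) and 10.8 ± 0.347 (SD, n = 3), a ratio of 2.16, with a log2 fold change of 0.98 (SE 0.059, adjusted p = 1.20e-06). The log2 ratio of Foxm1 over Mybl2 was higher by 0.17 with MMK-1 (exact permutation p = 0.1, no overlap). Foxm1 shares 144 exon bases on the same strand with Tex52, which had an FPKM of at most 0.0765.

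**Figure D2:**
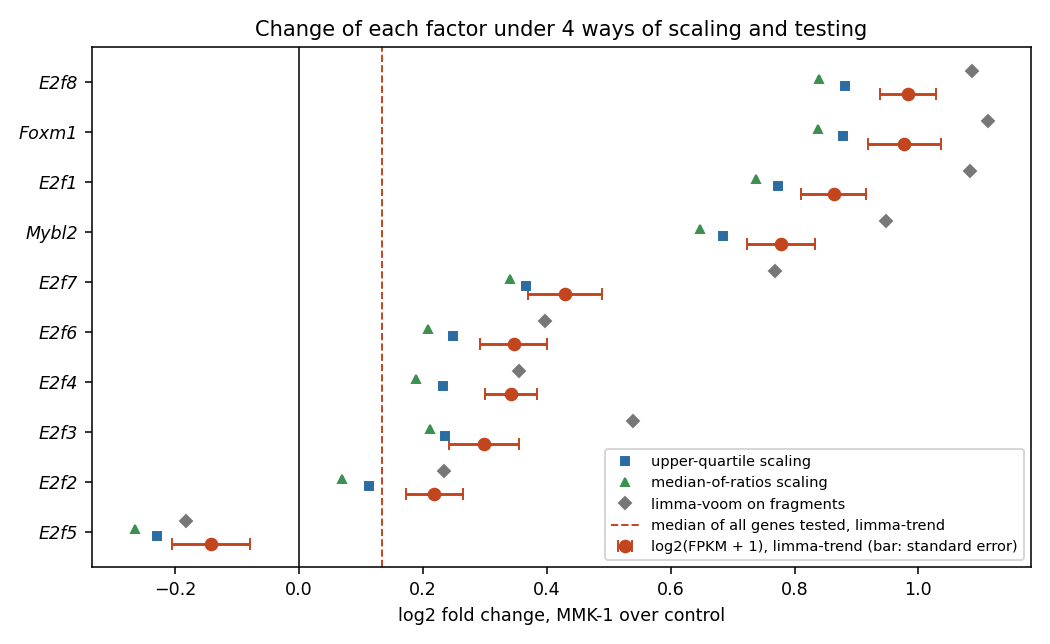
Log2 fold change of MMK-1 over control (horizontal axis) for each factor, from limma-trend on log2(FPKM + 1) (circles, bars are standard errors), after upper-quartile (squares) or median-of-ratios (triangles) scaling, and from limma-voom on fragments (diamonds). The dashed line is the median of all genes tested, 0.13, and E2f8, Foxm1, E2f1 and Mybl2 lie to the right of the other factors in each of these fits.

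The levels of the factors were compared per length, as FPKM. In controls the order was E2f4, E2f2, E2f8, E2f6, Foxm1, E2f5, Mybl2, E2f1, E2f3 and E2f7, and E2f3 and E2f7 were the neighbours whose libraries overlapped. With MMK-1 it was E2f4, E2f2, E2f8, Foxm1, E2f6, Mybl2, E2f1, E2f5, E2f7 and E2f3, with no overlap between neighbours. On this scale E2f5 stood above Mybl2 and E2f1 in controls and below them with MMK-1, and Foxm1 stood below E2f6 in controls and above it with MMK-1. These orders rest on the gene lengths that the FPKM values imply. For E2f3 that length was 25205 bases and for E2f5 7181 bases, against 5097 and 1779 bases for their longest coding transcripts in GENCODE vM21. With transcript lengths in their place, an alternative chosen after seeing the data, E2f5 ranked 2 in controls and 4 with MMK-1, and E2f3 ranked 6 and 7. E2f5 then stayed above Mybl2 and E2f1 in both groups, and Foxm1 stayed below E2f6, so these changes of order depended on the lengths used. The ratio of a gene's FPKM between the groups does not depend on its length, while the fold change on log2(FPKM + 1) does through the pseudocount.

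As a share of the summed FPKM of E2f1 to E2f8, which a scaling of the library does not move, E2f8 and E2f1 held more of the family with MMK-1. The sum was 59.6 ± 0.613 FPKM (SD, n = 3) in controls and 82.1 ± 1.02 FPKM (SD, n = 3) with MMK-1. E2f8 made up 11.1% ± 0.356 (SD, n = 3) of it in controls and 17.1% ± 0.486 (SD, n = 3) with MMK-1, and E2f1 4.57% ± 0.170 and 7.04% ± 0.246. The share of E2f2 went from 22.2% ± 0.514 to 19.0% ± 0.524, that of E2f4 from 42.7% ± 0.503 to 39.6% ± 0.804, and that of E2f5 from 6.34% ± 0.411 to 4.07% ± 0.356. Groups did not overlap for these 5 genes, nor for E2f3 and E2f7, in the 8 shares compared (exact two-sided permutation p = 0.1 each). The share of E2f6 was 9.79% and 9.38%, with overlap (exact permutation p = 0.5).

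By class, the atypical pair went from 12.7% ± 0.480 (SD, n = 3) to 19.1% ± 0.522 (SD, n = 3) of the family, and E2f4 to E2f6 from 58.8% ± 0.187 to 53.1% ± 0.116, both without overlap (exact permutation p = 0.1 each). The activators as a class held 28.5% ± 0.411 and 27.8% ± 0.625, and their groups overlapped (exact permutation p = 0.3). With transcript lengths the shares of the atypical pair were 10.1% and 15.9%, those of E2f4 to E2f6 62.7% and 55.7%, and those of the activators 27.3% and 28.5%, now without overlap. E2f5 was then 18.8% of the family in controls and 12.6% with MMK-1, and the groups of E2f4 overlapped.

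**Figure D3:**
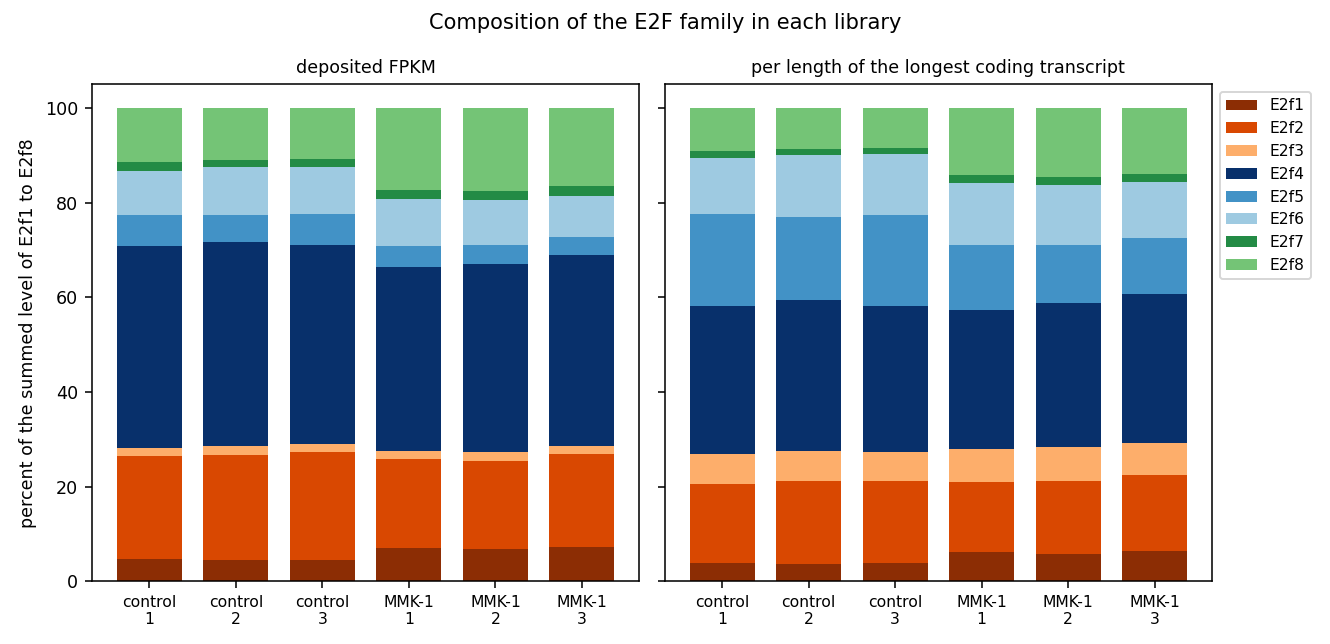
Share of each E2F gene, in percent of the summed level of E2f1 to E2f8 (vertical axis), in each of the 6 libraries, from the deposited FPKM (left) and per length of the longest coding transcript (right). The bands of E2f8 and E2f1 are wider, and that of E2f5 narrower, in the 3 MMK-1 libraries than in the 3 controls on both sides.

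Mki67 encodes Ki-67, a protein present in cycling cells and absent from resting ones, and each factor was set against it within each library. Mki67 is itself among the targets of G2 and mitosis counted below, so it is not an outside reference. The FPKM of Mki67 was 13.9 ± 0.405 (SD, n = 3) in controls and 27.6 ± 0.673 (SD, n = 3) in treated organoids, and its log2 fold change was 0.94 (adjusted p = 2.30e-07). The log2 ratio to Mki67 was higher by 0.12 for Foxm1 and by 0.096 for E2f8, without overlap of the groups (exact permutation p = 0.1 each, 10 ratios compared). For E2f1 it differed by 0.092 (exact permutation p = 0.2) and for Mybl2 by -0.044 (exact permutation p = 0.6), and the libraries of the groups overlapped. For these 4 factors the ratio to Mki67 thus moved by at most 0.12 on the log2 scale.

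The other 6 factors were lower relative to Mki67 in all 3 MMK-1 libraries than in any control (exact permutation p = 0.1 each). Most genes tested had a lower log2 fold change than Mki67, so a lower ratio is the common case. At 0.94, Mki67 lay between Foxm1 (0.98) and E2f1 (0.86), with 3.72% and 5.67% of genes tested above these factors. The share of all genes lower relative to Mki67 without overlap was not counted. The difference of the log2 ratio was -0.22 for E2f7, -0.45 for E2f3, -0.59 for E2f6, -0.64 for E2f4, -0.76 for E2f2 and -1.17 for E2f5. Pcna, a sliding clamp of DNA replication, rose less than Mki67, from 104 ± 0.315 (SD, n = 3) to 146 ± 7.69 (SD, n = 3) FPKM. Pcna is in turn among the targets of the G1/S transition counted below. Relative to Pcna, E2f1, E2f7, E2f8, Mybl2 and Foxm1 were higher with MMK-1, by 0.28 for E2f7 to 0.62 for Foxm1, and E2f2, E2f4 and E2f5 were lower, all without overlap (exact permutation p = 0.1 each). E2f3 and E2f6 overlapped between the groups on this measure. The sign for E2f3, E2f7 and Mybl2 thus depended on the reference gene.

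**Figure D4:**
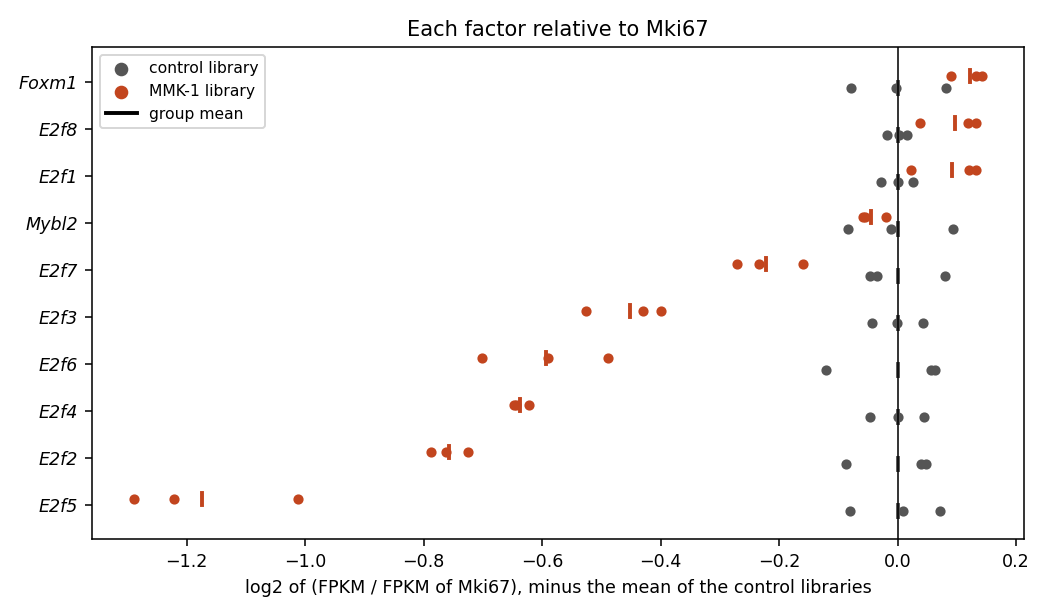
Log2 of the ratio of each factor to Mki67 in FPKM, less the mean of the controls (horizontal axis), in 3 control (grey) and 3 MMK-1 (red) libraries, with short vertical bars at the group means. Foxm1, E2f8, E2f1 and Mybl2 lie within 0.15 of the control mean in all MMK-1 libraries, and E2f5 lies between -1.0 and -1.3.

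Among the proteins that E2F factors bind, the DP partner Tfdp1 and the pocket protein Rbl1 rose, and Rbl2 fell. Of the 5 genes of this list, 3 were higher, 1 was lower and 1 did not pass. Over all genes tested the shares were 48.5% higher and 24.7% lower, so the counts of this list were close to the background, and 2 of the 5 were higher after upper-quartile or median-of-ratios scaling. Their median change was 0.20 on the log2 scale. Tfdp1, the main dimer partner, had an FPKM of 17.8, 16.9 and 16.7 in controls and 32.6, 31.1 and 34.6 with MMK-1, and its log2 fold change was 0.89 (adjusted p = 9.04e-07). Rbl1, the pocket protein of cycling cells, went from 7.37 ± 0.104 (SD, n = 3) to 10.9 ± 0.641 (SD, n = 3) FPKM, with a log2 fold change of 0.50 (adjusted p = 3.02e-05). Rbl2, the pocket protein of resting cells, was the exception in direction. Its FPKM was 8.83, 9.09 and 7.96 in controls and 7.36, 7.25 and 7.16 with MMK-1, and its log2 fold change was -0.22 (adjusted p = 0.00597). Tfdp2 had a log2 fold change of 0.20 (adjusted p = 0.0264), which did not pass after upper-quartile scaling (adjusted p = 0.176), without control replicate 3 (adjusted p = 0.0944) or without MMK-1 replicate 1 (adjusted p = 0.0825).

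Rb1, the founding pocket protein, had an FPKM of 24.1, 24.1 and 23.7 in controls and 30.7, 31.9 and 21.1 with MMK-1. Replicate 3 of the MMK-1 group lay below all controls while the other MMK-1 libraries lay above them. The log2 fold change was 0.19 (adjusted p = 0.223), and 0.37 (adjusted p = 1.70e-05) without that replicate. Without MMK-1 replicate 3 no factor changed its call, and the log2 fold changes were 0.84 for E2f1, 0.19 for E2f2, 0.31 for E2f3, 0.32 for E2f4, -0.11 for E2f5, 0.38 for E2f6, 0.43 for E2f7, 1.00 for E2f8, 0.75 for Mybl2 and 0.95 for Foxm1.

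Of the 5 genes of the MuvB core, to which MYBL2 and FOXM1 bind, 4 were higher with MMK-1 and 1 did not pass, beside 48.5% of all genes tested that were higher. The median log2 fold change was 0.56. After upper-quartile scaling 4 were again higher, beside 38.9%, with a median of 0.45. Lin54, the DNA-binding subunit that contacts the CHR, had an FPKM of 4.55, 4.13 and 4.12 in controls and a mean of 10.6 ± 2.21 (SD, n = 3) with MMK-1. MMK-1 replicate 3 was again the lowest of its group, at 8.08, but stayed above the controls, and the log2 fold change was 1.12 (adjusted p = 5.42e-05). Lin9, the subunit that MYBL2 contacts, rose from 2.69 ± 0.128 (SD, n = 3) to 5.24 ± 0.210 (SD, n = 3) FPKM, with a log2 fold change of 0.76 (adjusted p = 3.35e-06). The histone-binding subunit Rbbp4 and the small subunit Lin52 had log2 fold changes of 0.56 (adjusted p = 1.43e-05) and 0.39 (adjusted p = 0.00287). Lin37 did not pass, with 0.14 (adjusted p = 0.111), and passed without control replicate 3, with 0.21 (adjusted p = 0.0354).

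Most genes known as targets of these factors were also higher with MMK-1. Whether the factors regulated them in these organoids was not tested. Of 38 targets of the G1/S transition, 37 were higher with MMK-1, beside 48.5% of all genes tested, and 8 reached a fold change of at least 2, beside 3.39%. The latter count was 3 after upper-quartile scaling, beside 2.44% of all genes tested, and 17 in limma-voom, beside 6.89%. The median of the list was 0.82 on the log2 scale, beside 0.13 for all genes tested. The highest changes were those of the cyclin Ccne2 (log2 fold change 1.41, adjusted p = 8.60e-05), the uracil glycosylase Ung (1.12, adjusted p = 1.68e-06) and the licensing factor Cdt1 (1.11, adjusted p = 4.61e-07). In Ccne2, MMK-1 replicate 3 was below the other MMK-1 libraries, with 4.85 FPKM against 7.82 and 8.90, and above the controls at 1.78 to 2.26. Among the lowest were the phosphatase Cdc25a (0.25, adjusted p = 0.00105) and the Polycomb methyltransferase Ezh2 (0.43, adjusted p = 2.31e-05).

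Of 38 targets of G2 and mitosis, all 38 passed as higher, 5 of them with a fold change of at least 2, beside the same 48.5% and 3.39% of all genes tested, and their median change was 0.84 on the log2 scale. After upper-quartile scaling the counts of higher genes were 37 and 38, beside 38.9% of all genes tested, with medians of 0.73 and 0.74. The G2 and mitosis genes at a fold change of at least 2 then numbered 2, beside 2.44% of all genes tested, and 13 in limma-voom, beside 6.89%. Ect2, a guanine nucleotide exchange factor of cytokinesis, rose from 5.54 ± 0.0780 (SD, n = 3) to 18.9 ± 2.46 (SD, n = 3) FPKM, with a log2 fold change of 1.60 (adjusted p = 5.55e-07). The checkpoint kinase Bub1b (1.12, adjusted p = 7.50e-07) and the centromeric histone Cenpa (1.07, adjusted p = 3.20e-07) followed. The lowest were the kinase Cdk1 (0.60, adjusted p = 1.10e-05), the kinesin Kif14 (0.56, adjusted p = 7.05e-05) and the cyclin F gene Ccnf (0.37, adjusted p = 0.000349).

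Upstream of the pocket proteins, 11 genes for G1 cyclins, their kinases and inhibitors and Myc were listed. Cdkn2a was below the FPKM filter, and the other 10 passed as higher. The median of these 10 was 0.66 on the log2 scale, beside 48.5% of genes higher and a median of 0.13 over all genes tested. The cyclin Ccnd1 (1.51, adjusted p = 5.68e-08) and the kinase Cdk6 (0.97, adjusted p = 3.39e-07) rose beside the kinase inhibitor Cdkn1b (1.18, adjusted p = 0.000308). The lowest were the cyclin Ccnd3 (0.56, adjusted p = 0.000254), the inhibitor Cdkn2c (0.50, adjusted p = 3.18e-05) and Myc (0.30, adjusted p = 0.000582).

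**Figure D5:**
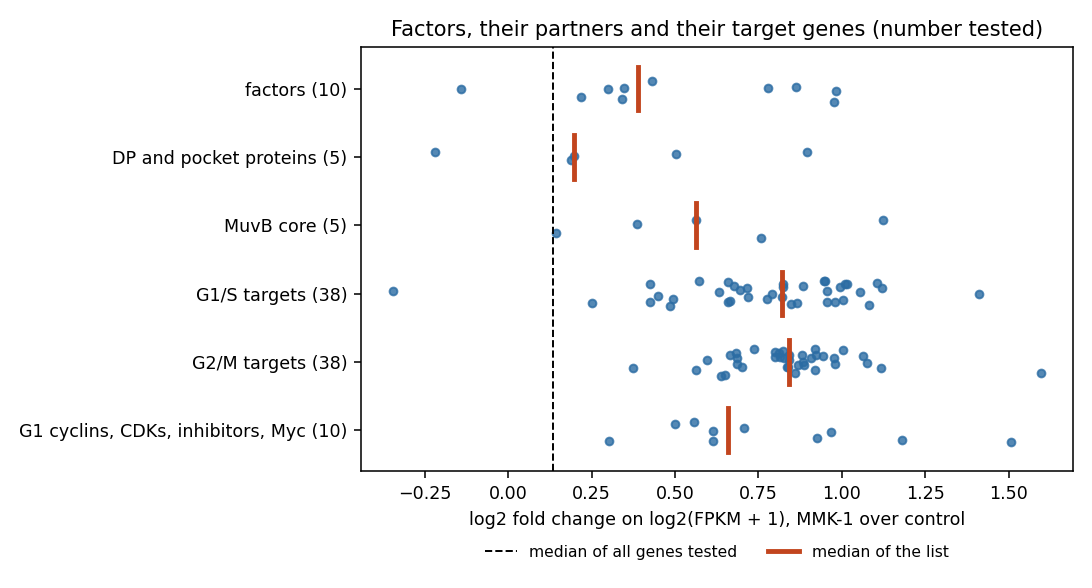
Log2 fold change on log2(FPKM + 1) of MMK-1 over control (horizontal axis) for each gene (points) of the 10 factors, their partners, the MuvB core, the G1/S and G2/M targets and the G1 regulators, with the median of each list (red bars) and of all genes tested (dashed line, 0.13). The medians of the target lists, 0.82 and 0.84, lie near E2f1 and Mybl2 and above most E2F genes.

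The genes whose profile over the 6 libraries was most like that of a factor were sought among 10541 tested genes outside the group, by the root mean square difference of centred log2(FPKM + 1). For E2f1 they were Cd177, Opa3 and Pklr, with differences of 0.018, 0.022 and 0.026. For Mybl2 they were Snhg3, Rnaseh2a and Zc3h10, with 0.020, 0.021 and 0.029. For Foxm1 they were Foxa2, Pmvk and Smpd3, with 0.027, 0.028 and 0.029. With 2 groups of 3 libraries, this likeness is set mainly by the size of the step between the groups.

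Markers of cell types moved between the groups as well. The summed FPKM of the stem cell markers Lgr5, Olfm4, Ascl2 and Smoc2, all 4 of which were higher, was 40.4 to 40.8 in controls and 289 to 304 with MMK-1. That of 6 enterocyte markers, of which 5 were lower, was 9593 to 9733 in controls and 6561 to 7011 with MMK-1. Their part in the differences of the factors was not tested. In bulk RNA, fewer cells of a type and less RNA per cell cannot be told apart, and a factor that is higher here may be so in a cell or in the share of cells that carry it. The 6 epithelial markers were all present, with a summed FPKM of 2362 to 2383 in controls and 1716 to 1867 with MMK-1. Of these 6, 2 were higher, 3 were lower and 1 did not pass, so the sum does not stand for each marker. Of 6 immune markers in the table, 3 were below 0.1 FPKM in every library, and the sum was 3.02 to 3.76 in controls and 0.935 to 1.80 with MMK-1, most of it Cd68. Of 6 mesenchymal markers, 5 were below 0.1 FPKM in every library, and the sum, most of it Pdgfrb, was 1.17 to 1.20 in controls and 0.326 to 0.455 with MMK-1. Of 2 endothelial markers, Kdr was at 0 in every library, and the sum was 0.0642 to 0.184 in controls and 0.0676 to 0.226 with MMK-1.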

How the data were processed

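RNA of small intestinal organoids was extracted with Trizol, libraries were made with the VAHTS Universal V10 kit, and 150-bp read pairs were sequenced on an Illumina NovaSeq instrument. The authors deposited FPKM values per gene. The submitters' processing notes name HISAT2, HTSeq, R 3.2.0, DESeq2 and the build mm10, without the role of each, and strandedness is not given in the sources used here.

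FPKM values were whole multiples of a step per gene and library. From this the fragments were recovered for all 20676 genes above 0 (whole to within 0.002, or 0.1 for large numbers), and the other 721 genes were at 0. In simulated libraries the same procedure gave every fragment number correctly for 98.3% of 19880 genes. The library totals were 35512739 to 37537463 fragments. Fits of log2(FPKM + 1) were made with limma 3.58.1 (R 4.3.3), for those genes whose FPKM averaged 1 or more, with no block and with Benjamini-Hochberg adjustment over all genes tested, and were tested on simulated data. Shares, ratios and exact permutation tests used Python 3.11.15 with numpy 2.4.6, pandas 2.3.3 and scipy 1.17.1, and plots used matplotlib 3.10.9. Alternatives were other scalings, filters and pseudocounts, limma-voom on fragments, a replicate block and leaving out each replicate.

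The members and gene lists were chosen with earlier results of these data known. The genes named are the members, all partners and MuvB subunits, the 3 highest and 3 lowest log2 fold changes of each target or regulator list, Mki67, and the 3 genes most like E2f1, Mybl2 and Foxm1. Pcna, the reference of an alternative, and the pairs of factors set as ratios are additions to these, and 1 gene that the rule names is not reported here. Coordinates are those of GENCODE vM21 on GRCm38, the build of mm10.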

Additional observations from a re-analysis of the deposited data

How the results depend on the processing

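Of 130 values of the 10 log2 fold changes under the alternatives, 125 kept their direction and their side of the threshold, and none changed direction. E2f2 lost its call after median-of-ratios scaling (0.070), and E2f5 was called lower after upper-quartile scaling (-0.23), median-of-ratios scaling (-0.27), in limma-voom (-0.18) and without MMK-1 replicate 1 (-0.19). The cause was not tested. Leaving out each replicate gave 0.84 to 0.89 for E2f1, 0.19 to 0.24 for E2f2, 0.28 to 0.31 for E2f3, 0.32 to 0.36 for E2f4, -0.19 to -0.11 for E2f5, 0.32 to 0.38 for E2f6, 0.41 to 0.46 for E2f7, 0.96 to 1.01 for E2f8, 0.74 to 0.80 for Mybl2 and 0.94 to 1.03 for Foxm1. Median-of-ratios scaling moved the median of all genes tested by -0.14 and the inclusion of every gene above 0 by -0.12. Genes called lower by adjusted p numbered 3916 after median-of-ratios scaling, against 2606. Genes with a fold change of at least 2 upward numbered 225 after that scaling, 676 with a pseudocount of 0.1, 1097 with that pseudocount and every gene above 0, and 727 in limma-voom, against 358 in the fit reported. Genes down by that fold numbered 818 with a pseudocount of 0.1 and every gene above 0, against 385.

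Of 64 differences in the shares of E2F genes, 52 stayed within the spread of the replicates. Without division by length the differences in percentage points were 2.00 for E2f1, -3.86 for E2f2, 0.74 for E2f3, -1.33 for E2f4, -4.07 for E2f5 and 0.63 for E2f7. With transcript lengths, chosen after seeing the data, they were -1.80 for E2f2, 0.67 for E2f3, -0.83 for E2f4, -6.18 for E2f5, 0.043 for E2f6, a change of sign, and 5.39 for E2f8. With Pcna in place of Mki67 the differences of the log2 ratio were 0.59 for E2f1, -0.26 for E2f2, 0.050 for E2f3, -0.13 for E2f4, -0.67 for E2f5, -0.091 for E2f6, 0.28 for E2f7, 0.60 for E2f8, 0.46 for Mybl2 and 0.62 for Foxm1, with a change of sign for E2f3, E2f7 and Mybl2. Pcna itself rose less than Mki67. Leaving out each replicate gave -0.086 to 0.0026 for Mybl2 relative to Mki67.

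Control and MMK-1 samples share replicate numbers, but samples with the same number did not deviate together, with correlations over genes of 0.025, -0.040 and 0.028, so the numbers were not taken as pairs. With the replicate block the log2 fold changes were those of the fit without it, for example 0.86 for E2f1 and -0.14 for E2f5 (adjusted p = 0.0740 in limma), no factor changed its call, the adjusted p called 5024 genes higher and 2543 lower, and Lin37 was called higher (adjusted p = 0.0390).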
